A study of Homo sapiens with 6 samples.

Results

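The MYC, MAX and MXD network was examined in the transcriptome of high-grade serous ovarian cancer (HGSOC) cells exposed to the CDK12/13 inhibitor THZ531. Its 10 members were the loci whose symbol equals MYC, MYCL, MYCN, MAX, MXD1, MXI1, MXD3, MXD4, MNT or MLX, out of 26793 loci with a symbol and 47577 loci in all. No member was counted in a locus joined with another symbol, and all 10 passed the expression minimum, which asked for 10 or more normalized reads in 3 or more libraries.

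The proteins of this network carry a basic helix-loop-helix leucine zipper and bind DNA in pairs at the E-box. MYC, MYCL and MYCN pair with MAX to activate genes of growth, ribosome production and metabolism, whereas the MXD proteins and MNT compete for the same MAX and bring SIN3 and histone deacetylases to the same sites. MLX is a MAX-like protein that joins MLXIP, MLXIPL, some MXD proteins and MNT, and links the network to glucose sensing. MYC is often amplified in HGSOC.

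The cells were OVCAR3, an established cell line from an HGSOC. There were 3 libraries from cells given the vehicle DMSO and 3 from cells given 200 nM THZ531, both collected after 6 h, and nothing in the labels says that same-numbered libraries share a culture. THZ531 is a covalent inhibitor of CDK12 and its paralog CDK13, kinases that phosphorylate the tail of RNA polymerase II during elongation. The name THZ531 stands in the sample titles and characteristics, while the treatment text of the labels gives THZ1, a related inhibitor, at the same dose. All values come from 1 cell line, 1 dose and 1 time, so p-values measure only the spread between these libraries.

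The reads counted on genes ranged from 53054048 to 70986130 per library. A normalized read here is a read count divided by the size factor of its library, not corrected for gene length. RNA levels were measured relative to the rest of each library, so a change in the total RNA of a cell could not be seen. In such bulk samples fewer cells of a type and less RNA per cell cannot be told apart.

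The label of the cell line was checked on marker genes. All 14 epithelial and ovarian markers examined passed the minimum, and KRT8, a keratin of simple epithelia, had the most reads, 153783 ± 3185 normalized reads in DMSO and 230529 ± 2829 in THZ531 (SD, n = 3 each). PAX8, the lineage factor of the Müllerian tract, fell from 11272 ± 545 to 1241 ± 121 normalized reads, while CLDN4, a tight junction gene, rose from 12992 ± 1222 to 32090 ± 1604. The other 12 were not called, the median log2 fold change of the 14 was 0.30, and their sum was 542361, 546743 and 530194 normalized reads in DMSO and 690166, 683656 and 696612 in THZ531. Of the fibroblast markers 3 of 5 were expressed, with DCN and LUM at means of 1.59 and 1.15 normalized reads in DMSO and at 0 in THZ531. COL1A1, the fibroblast marker with the most reads, rose from 995 ± 47.5 to 2190 ± 141 normalized reads, COL3A1 rose from 724 ± 171 to 1080 ± 111, and the sum of the 5 markers was 1785, 1689 and 2017 in DMSO and 3328, 3602 and 3233 in THZ531. CD3E, the leukocyte marker of T cells, was at 0 in all 6 libraries, and the 4 leukocyte markers summed to between 406 and 496 normalized reads in every library, most of them from CD68. The 3 endothelial markers summed to between 162 and 299, and VWF, which had the most reads of them, rose from 89.0 ± 28.3 to 144 ± 5.48. The part of such markers in the changes of the network was not tested.

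Of the 10 members, 5 rose (MYC, MYCN, MXD1, MXI1 and MNT), 1 fell (MLX) and 4 were not called (MYCL, MAX, MXD3 and MXD4). A call needed a 1.5-fold difference or more together with an unadjusted limma p no higher than 0.05, the thresholds of the study. Over all 17568 expressed loci, 15.7% rose and 23.9% fell by the same rule, against 50% and 10% of the members. The groups did not overlap for 7 of the 10 members, beside 71.7% of all expressed loci, and 7 members had a Benjamini-Hochberg adjusted p of at most 0.05 at any fold, beside 68.6%. These last shares lie near the background and say nothing particular about the network. The median log2 fold change of all expressed loci was -0.01.

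**Figure D1:**
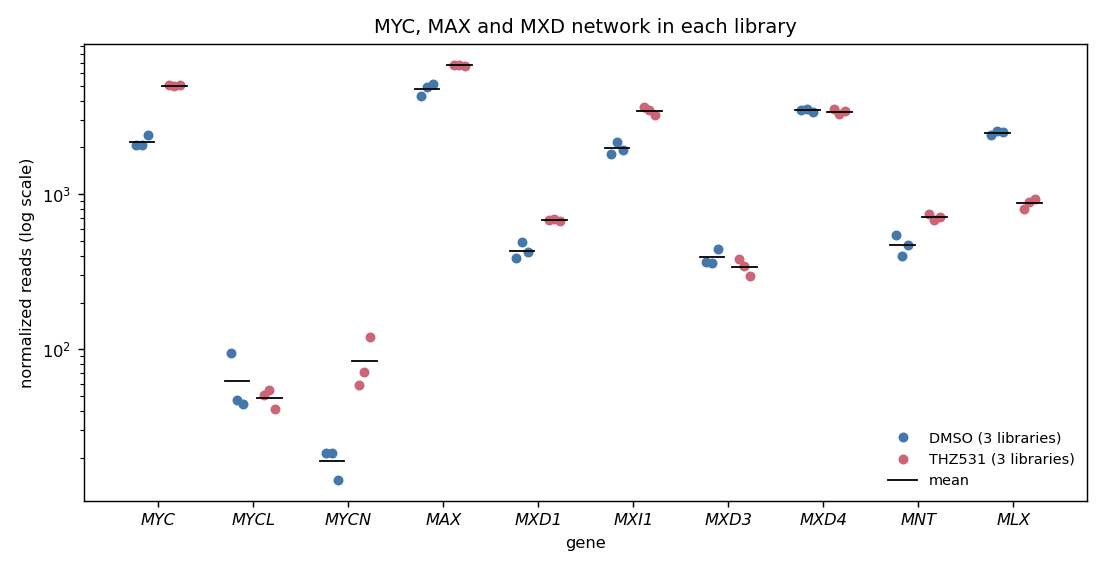
Normalized reads (log scale) of the 10 network members in each of the 3 DMSO and 3 THZ531 libraries, with lines at the group means. The groups lie apart for MYC, MYCN, MAX, MXD1, MXI1 and MNT, which are higher in THZ531, and for MLX, which is lower, and they overlap for MYCL, MXD3 and MXD4.

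The E-box CACGTG, which reads the same on both strands, was searched in the RefSeq promoters of the members (GRCh38.p14, 250 bases before to 50 after each gene start), because it is the site the network proteins bind. RefSeq entries matched 9 members with 12 promoters, and MYC was not matched. It was found in the promoters of MLX, MNT and MXD4, that is in 3 of the 12 promoters of members, beside 2548 of 35116 promoters in the table (7.26%). By gene these were 3 of 9 members, beside 12.2% of the expressed genes with 1 symbol and an entry in the table. Each of the following windows runs 5′ to 3′ on the strand of its gene, with the E-box in capitals.
MLX, chr17:42567038-42567067, plus strand: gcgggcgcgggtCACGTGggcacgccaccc
MNT, chr17:2401236-2401265, minus strand: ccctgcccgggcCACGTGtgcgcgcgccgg
MXD4, chr4:2262330-2262359, minus strand: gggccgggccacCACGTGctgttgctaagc
The motif begins 50 bases before the RefSeq start of MLX, 193 before that of MNT and 238 before that of MXD4. For MLX this RefSeq start lies downstream of the start of the locus given below. The 3 genes that share it did not share a direction, since MLX fell, MNT rose and MXD4 was not called. Among expressed genes with a promoter in the table, the 1406 with the motif had a median log2 fold change of 0.01 and the 10106 without it -0.01. A match is a run of letters and not a measured binding site.

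Among the activating paralogs, MYC, the broadly expressed oncogene, lies at chr8:127735434-127742951 (hg38, as are all loci here) on the plus strand. It had 2058, 2084 and 2389 normalized reads in the DMSO libraries and 5010, 4955 and 5050 in the THZ531 libraries. Every treated library was above every DMSO library, and the treated ones differed from each other by less than the DMSO ones did. MYC rose 2.30-fold, a log2 fold change of 1.20 ± 0.06 (SE; adjusted p = 2.58e-11 in limma), and 6.16% of expressed loci had a higher log2 fold change.

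MYCN, the paralog known from neuroblastoma and the nervous system (chr2:15940438-15947004, plus strand), was present at low level. Its DMSO libraries had 21.4, 21.3 and 14.4 normalized reads, and its THZ531 libraries 59.2, 71.6 and 121. The groups did not overlap, but the third treated library was well above the other two. MYCN rose 4.10-fold on the log2(value + 1) scale, a log2 fold change of 2.04 ± 0.34 (SE; adjusted p = 5.89e-05), which was 1.74 without THZ531 replicate 3. Even after treatment its level of 30.4 ± 11.8 normalized reads per kb of exon stood far below the 819 ± 7.83 of MYC.

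MYCL, the paralog first found in lung cancer (chr1:39895428-39901917, minus strand), had 94.5, 47.3 and 44.7 normalized reads in DMSO and 50.4, 54.6 and 41.0 in THZ531. The first DMSO library was high and the other 5 lay close together, so the groups overlapped. MYCL was not called, with a log2 fold change of -0.27 (95% interval -0.93 to 0.39, adjusted p = 0.452), and this became 0.069 without DMSO replicate 1. The interval includes changes past 1.5-fold downward, so these libraries leave room for a fall of that size.

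MAX, a partner of all 3 MYC paralogs and of the MXD proteins (chr14:65006101-65102695, minus strand), had the highest level per kb of exon in both groups. It had 4307, 4871 and 5150 normalized reads in DMSO and 6816, 6769 and 6683 in THZ531. The groups did not overlap, and the adjusted p was 4.71e-07, but the 1.42-fold difference lay under the threshold of 1.5, so MAX was not called. Its log2 fold change was 0.50 (95% interval 0.39 to 0.62). FNTB, a farnesyltransferase subunit on the opposite strand, overlaps 56551 bases of the MAX locus and rose from 606 ± 57.1 to 998 ± 40.2 normalized reads. The strand used in counting is not given in the sources used here, and reads of the shared stretch cannot be told apart without it.

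The MXD genes and MNT encode the antagonists. MXD1, known to rise when cells differentiate (chr2:69915071-69942945, plus strand), had 385, 490 and 422 normalized reads in DMSO and 685, 689 and 669 in THZ531. The treated libraries lay close together and above all DMSO libraries. MXD1 rose 1.58-fold, a log2 fold change of 0.66 ± 0.10 (SE; adjusted p = 1.6e-05), and without DMSO replicate 1 its value of 0.58 was just under the log2 threshold of 0.585.

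MXI1, also called MXD2, is a candidate tumor suppressor and a known target of hypoxia signaling (chr10:110207598-110287365, plus strand). It had 1810, 2173 and 1930 normalized reads in DMSO and 3626, 3489 and 3242 in THZ531. All treated libraries were higher than all DMSO libraries by more than the spread within either group. MXI1 rose 1.75-fold, the largest rise among the 5 antagonists, with a log2 fold change of 0.81 ± 0.06 (SE; adjusted p = 1.47e-08).

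MXD3 and MXD4 were not called. MXD3, an antagonist linked to proliferating cells (chr5:177305499-177311898, minus strand), had 365, 362 and 444 normalized reads in DMSO and 383, 343 and 295 in THZ531. PRELID1, a mitochondrial lipid transfer gene on the opposite strand, shares 1451 bases with MXD3 and had far more reads, 14513 ± 474 in DMSO and 18237 ± 139 in THZ531, so the limit on strand given for MAX holds here as well. The MXD3 groups overlapped, and its log2 fold change was -0.20 (95% interval -0.46 to 0.06, adjusted p = 0.166). MXD4 (chr4:2247432-2262109, minus strand) had 3505, 3512 and 3392 normalized reads in DMSO and 3519, 3267 and 3412 in THZ531. Here too the groups overlapped, and the log2 fold change of -0.03 had a narrow 95% interval of -0.13 to 0.07 (adjusted p = 0.574), which lies inside 1.5-fold in either direction.

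MNT, a widely expressed antagonist known to pair with both MAX and MLX (chr17:2384061-2401060, minus strand), had 544, 399 and 473 normalized reads in DMSO and 741, 684 and 708 in THZ531. The groups lay apart, with a wider spread in DMSO. Its 1.52-fold rise, a log2 fold change of 0.60 ± 0.10 (SE; adjusted p = 9.18e-05), was only just over the threshold. The call was lost with edgeR (0.57), after scaling to the upper quartile (0.58), without DMSO replicate 2 (0.49) and without THZ531 replicate 1 (0.57).

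MLX was the member that fell. It lies at chr17:42567072-42573239 on the plus strand and had 2398, 2542 and 2523 normalized reads in DMSO and 801, 893 and 927 in THZ531. The highest treated library had less than the lowest DMSO library. The fall was 2.85-fold, a log2 fold change of -1.51 ± 0.06 (SE; adjusted p = 1.18e-11), and 8.13% of expressed loci had a lower value. Its 3′ end shares 930 bases with PSMC3IP, a recombination factor on the opposite strand, which fell as well (from 1184 ± 160 to 679 ± 62.5 normalized reads), and the same limit on strand holds. On the other side, COASY, a coenzyme A synthesis enzyme 791 bases away, had a log2 fold change of 0.45 and was not called. RETREG3, an endoplasmic reticulum gene on the minus strand beyond PSMC3IP, 6269 bases from MLX, fell from 629 ± 27.5 to 334 ± 36.8 normalized reads (log2 fold change -0.91).

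**Figure D2:**
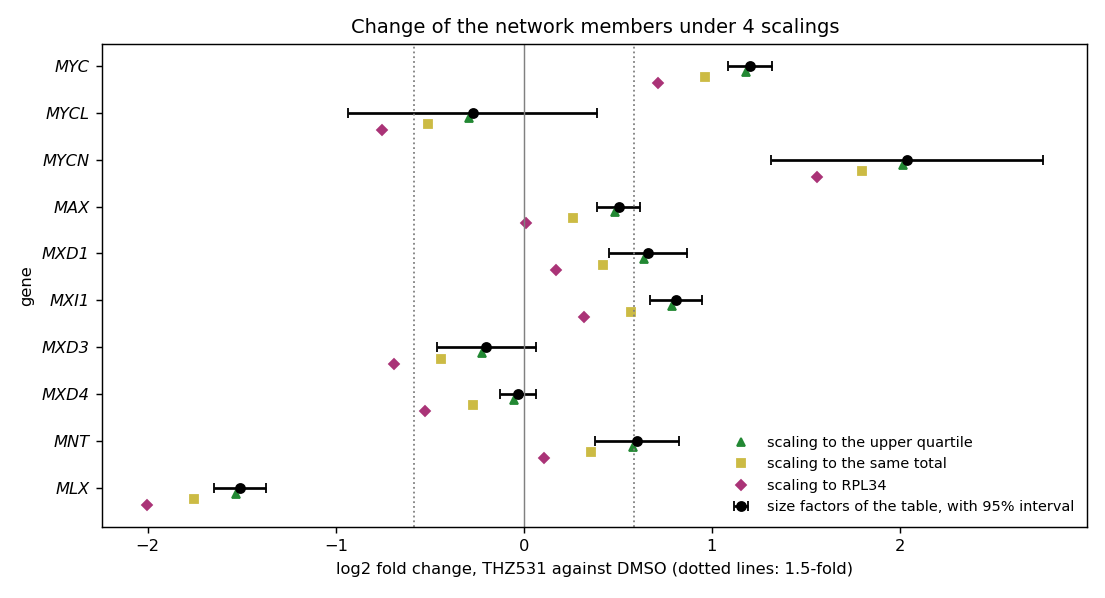
Log2 fold change of each member, THZ531 against DMSO, with its 95% interval under the size factors of the table (black) and the values after scaling to the upper quartile, to the same total and to RPL34 (coloured); dotted lines mark 1.5-fold. MYC and MYCN lie above and MLX below the dotted lines under all 4 scalings, while MXD1, MXI1 and MNT cross the line when the libraries are brought to the same total or to RPL34.

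The scaling of the libraries bears on the smaller changes. Bringing all libraries to the same total moved every log2 fold change by about -0.24, and bringing them to the same value of RPL34, a ribosomal protein gene used as a reference, by about -0.49. MYC kept a rise, with log2 fold changes of 0.96 and 0.71, and so did MYCN with 1.80 and 1.56. MLX stayed far below at -1.75 and -2.00. MXI1 went to 0.57 and 0.32, MXD1 to 0.42 and 0.17 and MNT to 0.36 and 0.11, none of which was called, and MAX went to 0.26 and 0.01. MXD3 (-0.69) and MYCL (-0.76) passed the thresholds of a fall after scaling to RPL34 and not otherwise. With the same total, 1647 of all expressed loci rose and 5615 fell, in place of 2751 and 4197, and with RPL34 1078 rose and 7524 fell.

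Ratios within a library do not depend on scaling. MYC had 0.456 ± 0.026 reads per MAX read in DMSO and 0.741 ± 0.013 in THZ531 (SD, n = 3 each), a log2 difference of 0.70 with groups apart. Against the sum of the 5 antagonists, the MYC ratio went from 0.323 ± 0.031 to 0.584 ± 0.024, again with groups apart. The log2 difference of this ratio was 0.85, and it was 0.54 with MXD4, which had the most reads of the 5 in DMSO, left out of the sum. The ratio of MYC to MXD4 was below 1 in every DMSO library and above 1 in every treated one, with means of 0.628 and 1.47.

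Relative to MAX the antagonists divided. MXI1 gained 0.31 on the log2 scale, with groups apart. MXD1 (0.16) and MNT (0.10) had overlapping groups, so no difference from MAX was seen beyond the spread. MXD3 lost 0.70 and MXD4 0.53 against MAX, and MLX lost 2.02, from 0.523 ± 0.033 to 0.129 ± 0.011 MLX reads per MAX read. In these 3 ratios all treated libraries lay below all DMSO libraries.

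**Figure D3:**
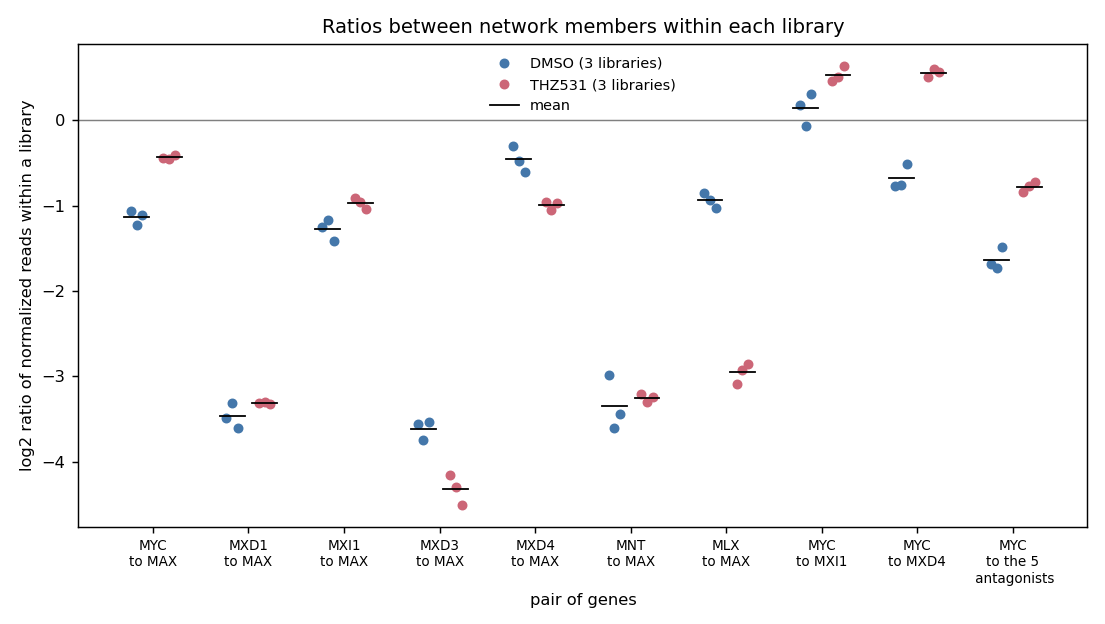
Log2 ratio of normalized reads between pairs of network members within each of the 3 DMSO and 3 THZ531 libraries, with lines at the means. MYC is higher in THZ531 against MAX, MXI1, MXD4 and the summed antagonists, MLX, MXD3 and MXD4 are lower against MAX, and the groups overlap for MXD1 and MNT.

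To compare levels between genes, reads were divided by the length of all annotated exons of each gene (GENCODE v44). In DMSO the order was MAX (763 ± 68.6 normalized reads per kb), MLX (585 ± 18.5), MXD4 (505 ± 9.82), MYC (356 ± 30.1), MXI1 (334 ± 31.3), MXD3 (82.3 ± 9.76), MXD1 (68.1 ± 8.38), MNT (54.2 ± 8.32), MYCL (12.5 ± 5.64) and MYCN (6.91 ± 1.47). Neighbours that overlapped in this order were MYC with MXI1, MXD3 with MXD1 and MXD1 with MNT. MYC was thus the fourth of 10 in DMSO, below MXD4 and MLX.

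After THZ531 MAX was still first, at 1080 ± 10.8 normalized reads per kb, and MYC stood second at 819 ± 7.83. MXI1 followed at 584 ± 32.9 and MXD4 at 495 ± 18.4, and MLX dropped to the fifth place at 205 ± 15.4. MXD1 (107 ± 1.67), MNT (81.7 ± 3.25) and MXD3 (71.7 ± 9.32) came next, of which MNT and MXD3 overlapped. MYCN (30.4 ± 11.8) was now above MYCL (9.79 ± 1.40). With the length of the longest annotated transcript the first 5 places were the same in both groups, but the levels were higher, with 585 ± 49.5 in place of 356 ± 30.1 for MYC and 1514 ± 136 in place of 763 ± 68.6 for MAX in DMSO. The lower places changed with this length, to MXD3 (149 ± 19.4), MNT (144 ± 5.74) and MXD1 (122 ± 1.90) in THZ531.

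**Figure D4:**
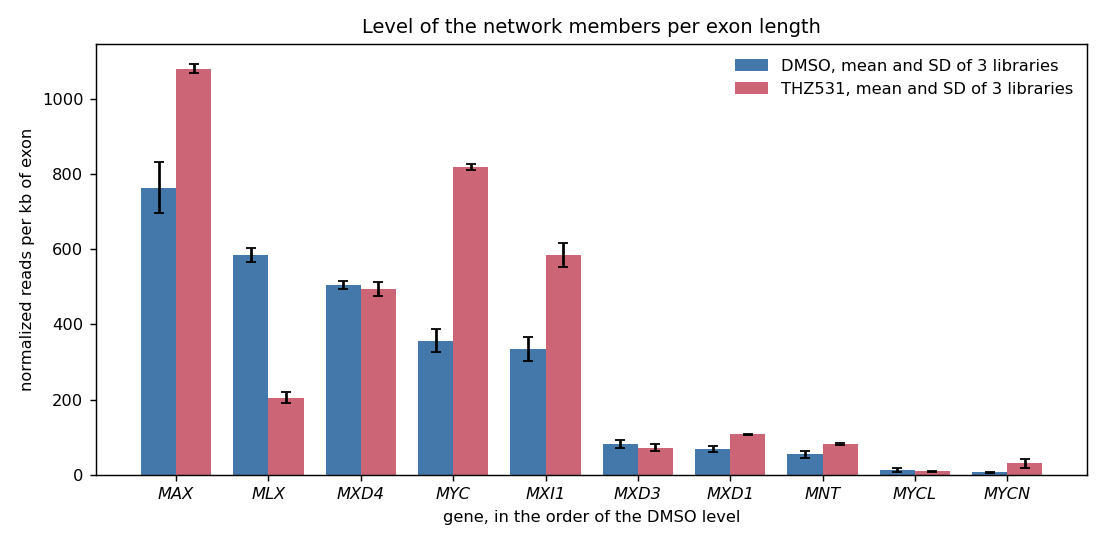
Normalized reads per kb of annotated exon for the 10 members, as the mean and SD of 3 libraries per group, in the order of the DMSO level. MAX is highest in both groups, MYC passes MXD4 and MLX in THZ531, and MLX goes from the second to the fifth place.

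The structure of the genes was set beside the changes, because CDK12 and CDK13 act on elongation and loss of their activity is known to favor early polyadenylation in long genes. Of the members 5 span less than 10 kb (MYC, MYCL, MYCN, MXD3 and MLX) and the other 5 more. The short ones included both the largest rises and the fall. Exons, introns and signals were counted only in the MANE Select transcript of each gene, its reference transcript in GENCODE v44. MYC, with 3 exons and 3000 bases of intron, had no AATAAA, the common polyadenylation signal, on the transcribed strand of its introns. MLX, with 8 exons and 3744 bases of intron, had 3 such signals (0.80 per kb of intron), and MYCL, which was not called, had 3 in 2968 bases (1.01 per kb). MYCN had 1 and MXD3 2. In these transcripts MXI1 had the longest introns, 76291 bases in all with 95 signals. MAX had 25381 bases with 22 signals, in a locus that spans 96595 bases. The log2 fold change of both genes was above 0. Among all expressed loci with 1 symbol the median log2 fold change was 0.07 for those under 10 kb (n = 3648), -0.07 for 10 to 30 kb (n = 4244), -0.01 for 30 to 100 kb (n = 4558) and -0.07 for 100 kb and over (n = 2642).

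The named neighbours of the members moved in several directions. PVT1, the noncoding gene downstream of MYC, had 118 ± 14.7 normalized reads in DMSO and 135 ± 8.66 in THZ531 and was not called (adjusted p = 0.344). DDX1, a helicase gene often amplified together with MYCN, was not called either, with 16959 ± 313 and 18241 ± 154 normalized reads. TRIT1, a tRNA-modifying enzyme next to MYCL, rose with a log2 fold change of 0.65, and RAB24, an autophagy-related gene next to MXD3, fell with -1.76. SMNDC1, a splicing factor 3365 bases from MXI1, had -0.07 and was not called. Inside MNT lies a locus without a symbol at chr17:2389278-2392078, with 245 ± 41.2 normalized reads in DMSO and 283 ± 56.3 in THZ531, and its log2 fold change of 0.20 was not called (adjusted p = 0.269). A like locus at the 3′ end of MXD4 had 24.1 ± 6.81 and 20.7 ± 1.77 normalized reads.

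Genes that work with the network were counted in 9 lists, of which 168 of 175 genes were expressed. Over all lists 37 genes rose (22.0%) and 10 fell (5.95%), beside 15.7% and 23.9% of all expressed loci, and the median log2 fold change was 0.32 against -0.01. With the same total 15 rose and 22 fell, and with RPL34 5 rose and 40 fell, so the balance of the lists turns with the scaling. The background moved the same way. Of all 17568 expressed loci 1647 rose and 5615 fell with the same total, and 1078 rose and 7524 fell with RPL34. Counts of single lists under these scalings, given below, are to be read beside that background. The lists were counted, not tested as sets.

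Among the partners of MLX and MAX, MLXIP (MondoA), the partner of MLX in most tissues, had 3171 ± 107 normalized reads in DMSO and 3690 ± 61.2 in THZ531 and was not called (log2 fold change 0.22). MLXIPL (ChREBP), the glucose-responsive partner known from liver, was low and fell from 76.0 ± 5.50 to 43.7 ± 14.9 normalized reads (log2 fold change -0.84, adjusted p = 0.0149). MGA, which joins MAX in a repressive complex, was not called (log2 fold change 0.29). Among 8 expressed genes known as targets of MLX, 1 rose (12.5%) and 2 fell (25%) under the size factors of the table. These shares lie near the 15.7% and 23.9% of all expressed loci. With the same total 1 rose and 3 fell, and with RPL34 0 rose, so the call of TXNIP was lost there. TXNIP, an inhibitor of glucose uptake and a widely used readout of MLXIP, rose from 310 ± 41.3 to 614 ± 34.9 normalized reads (log2 fold change 0.99). ARRDC4, its relative with the same kind of control, had 354 ± 48.7 and 377 ± 11.0 normalized reads and was not called. ELOVL6, a fatty acid elongase, fell with a log2 fold change of -0.98, and the second gene that fell was PNPLA3, whose mean was under 100.

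The SIN3 and NCOR corepressors, which the antagonists recruit, had 5 of 18 genes risen and 2 fallen under the size factors of the table. With the same total 2 of them rose and 2 fell, and with RPL34 2 rose and 3 fell. ING1, a histone-reading subunit of the SIN3 complex, rose from 1396 ± 117 to 3433 ± 92.4 normalized reads (log2 fold change 1.30). ARID4B, another subunit of that complex, rose with 1.19, and SAP30 (0.79), SKI (0.75) and RBBP7 (0.62) rose less. SIN3B, which with SIN3A forms the scaffold bound by MXD proteins, fell from 586 ± 25.3 to 192 ± 30.6 normalized reads (log2 fold change -1.62, adjusted p = 1.00e-08). The members of this list thus moved in both directions, with a list median of 0.33.

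Of 20 MYC cofactors 5 rose and none fell under the size factors of the table, with a median of 0.38. With the same total 3 cofactors rose and 2 fell, and with RPL34 0 rose and 6 fell. ZBTB17 (MIZ1), through which MYC represses genes, rose from 3520 ± 52.3 to 6958 ± 168 normalized reads (log2 fold change 0.98), CCNT1, the cyclin of P-TEFb, rose with 0.87 and PIM1, a kinase that works with MYC, with 0.86. HCFC1, a chromatin factor that binds MYC, rose with 0.76. Of 22 regulators of MYC transcription and MYC mRNA 5 rose and none fell under the size factors of the table. Scaling to the same total gave 0 risen and 2 fallen regulators, and scaling to RPL34 gave 0 and 4. CTNNB1, which encodes beta-catenin, rose from 24619 ± 2266 to 40556 ± 298 normalized reads (log2 fold change 0.72), and CTCF, the insulator protein, rose with 0.70. YY1 (0.68) and PUF60, which binds a control element of MYC (0.66), rose as well. The list median was 0.22.

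Of 25 expressed genes for turnover and phosphorylation of MYC protein, 5 rose and 1 fell under the size factors of the table. Scaling to the same total gave 1 risen and 6 fallen genes, and scaling to RPL34 gave 0 and 9. GSK3B, the kinase that marks MYC for degradation, rose from 2835 ± 69.1 to 5271 ± 136 normalized reads (0.89), and PPP2R5A, a phosphatase subunit that acts on MYC, with 0.66, and USP36, a nucleolar deubiquitinase of MYC, with 0.65. SKP2, an F-box protein that acts on MYC (0.63), and AURKA, a kinase known to stabilize MYCN (0.59), rose just past the threshold. FBXO28, an F-box protein that ubiquitinates MYC, fell steeply, from 4654, 4561 and 4858 to 1237, 1241 and 1288 normalized reads (log2 fold change -1.90). FBXW7, the ligase that reads the GSK3B mark, was not called, with 495 ± 20.1 and 428 ± 17.6 normalized reads (log2 fold change -0.21, adjusted p = 0.0539). USP37 is listed at 0 in every library, and whether its reads were left out in counting was not tested. MYC protein was not measured here.

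Among 48 expressed genes known as activated by MYC, 10 rose and 2 fell, with a median log2 fold change of 0.38. SLC16A1, the lactate transporter MCT1, rose from 5251 ± 247 to 11581 ± 89.9 normalized reads (1.14), PPAT, the first enzyme of purine synthesis, with 1.00 and CDC25A, a phosphatase of the cell cycle, with 0.91. CAD, which starts pyrimidine synthesis, fell from 5359 ± 448 to 3227 ± 167 normalized reads (-0.73), and GNL3, the nucleolar protein nucleostemin, with -0.65. HSPD1 is listed at 0 and NCL at no more than 11.1 normalized reads in any library although both are used by every cell, so these values say nothing of their expression.

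Genes known as repressed by MYC had 6 of 17 risen and none fallen, with a median of 0.50. CDKN1C, a CDK inhibitor, rose from 187 ± 33.1 to 754 ± 9.97 normalized reads (log2 fold change 2.03), GADD45B, a stress-response gene, with 0.97 and CDKN1A, the CDK inhibitor p21, with 0.95. Both the activated and the repressed list therefore had more genes risen than fallen under the size factors of the table. With the same total 4 activated genes rose and 4 fell, and 3 repressed genes rose and 0 fell. With RPL34 1 activated gene rose and 9 fell, and 1 repressed gene rose and 2 fell.

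Other factors of this zipper family that do not join MAX had 1 of 8 risen (12.5%) and 2 fallen (25%). These shares lie near the 15.7% and 23.9% of all expressed loci and say nothing particular about the family. TFEB, the regulator of lysosome genes, had 458, 446 and 454 normalized reads in DMSO and 88.2, 48.9 and 77.4 in THZ531, a log2 fold change of -2.69 (adjusted p = 3.82e-09), larger in size than that of MLX. TFAP4, itself a known MYC target, fell with -0.70, and MITF, the melanocyte regulator, rose with 1.08 from 99.8 ± 10.1 to 213 ± 35.8 normalized reads. Of the inhibited kinases, CDK12 had a log2 fold change of 0.39 and CDK13 of -0.02, and neither was called. RPL34 itself went from 12999 ± 1180 to 18247 ± 86.8 normalized reads (0.49).

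**Figure D5:**
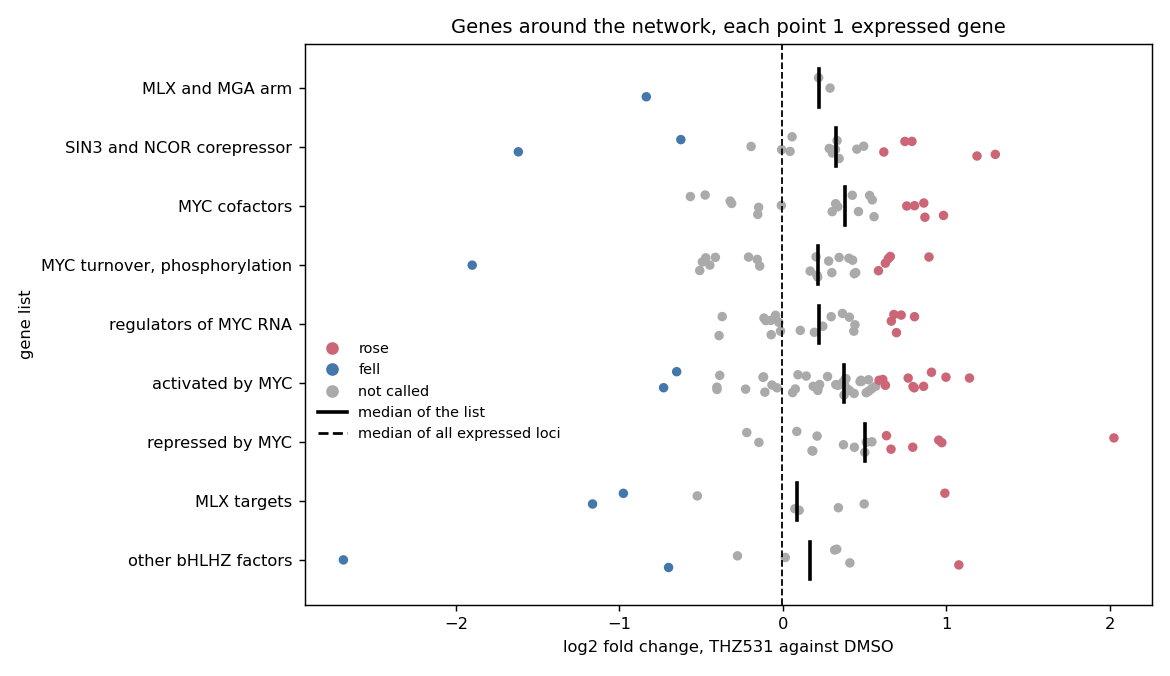
Log2 fold change (THZ531 against DMSO) of each expressed gene in 9 lists around the network, colored by its call, with the median of each list and of all expressed loci. All 9 list medians lie above the dashed line of all loci at -0.01 under the size factors of the table; FBXO28, SIN3B and TFEB are the lowest genes of their lists.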

How the data were processed

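PolyA plus libraries were mapped by the authors to hg38 with STAR (2.7.5a in the submitters' processing notes), and reads were counted with featureCounts on FAST DB loci. The deposited signal holds read counts that the authors divided by DESeq2 size factors. Multiplied by the size factor, 100% of the values of every library came out whole (within 0.1 read), which gave back the counts. The network members and all lists were chosen with earlier results of these data known.

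The log2(value + 1) values of 17568 loci (10 or more in 3 or more of 6 libraries) were fitted with limma 3.58.1 (trended variance, R 4.3.3, no covariate), with Benjamini-Hochberg adjustment over all of them, and this fit gave every p. The fits were tested on simulated data. edgeR 4.0.16 and DESeq2 1.42.0 on the recovered counts, other pseudocounts, minimums, scalings and thresholds, a replicate block and leaving out each library were alternatives. From each list the up to 3 genes with the largest rise and fall among those called, with a mean of at least 100, were named by rule, while PNPLA3 and the further called genes of lists with 5 or fewer calls were named after their values were seen. Some list genes are counted but not reported here by name. Exon lengths came from GENCODE v44 and promoters from RefSeq (GRCh38.p14). TRRAP was read from a locus joined with another symbol.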

Additional observations from a re-analysis of the deposited data

How the results depend on the processing

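Calls of MYC, MYCN and MLX kept their direction and stayed past the thresholds under every alternative run, and those of MXD1, MXI1 and MNT did not. The 5 members that rose became 2 (MYC and MYCN) with scaling to the same total, with scaling to RPL34 and with a fold change of 2, and the 1 that fell became 3 (MLX, MXD3 and MYCL) with RPL34. In the lists, 37 risen and 10 fallen genes became 15 and 22 after scaling to the same total, 5 and 40 after scaling to RPL34, and 5 and 4 at a fold change of 2. The log2 difference of MYC to the antagonists went from 0.85 to 0.54 without MXD4. These differences follow from how the alternatives are built, by a shift of all values, a stricter threshold or fewer genes in a sum. Leaving out each library gave MYCL log2 fold changes from -0.46 to 0.069, the highest without DMSO replicate 1, which had the most MYCL reads. With the replicate number as a block, 5 members rose and 1 fell, as without it. Deviations of same-numbered libraries correlated at 0.002, 0.019 and -0.039 across loci, so no strong effect shared by number was seen. With 3 libraries per group this check cannot tell whether same-numbered cultures were handled together. With 3 libraries per group, low genes such as MYCL and MYCN were measured with the widest intervals.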
